A study of Caenorhabditis elegans with 20 samples.

Results

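Wild-type (WT) Caenorhabditis elegans grown on plates that carried the mold Penicillium brevicompactum were compared with WT animals grown without it. All animals were young adults, raised for about 48 hours from the first larval stage at 20 C on Escherichia coli OP50, the food bacterium that both groups received. The comparison rests on 6 of the 12 replicates in the series, 3 of WT with mold and 3 of WT without mold, chosen by their labels alone. The other 6 carry the allele ns889, again with and without mold; which gene it affects is not in the labels. Poly(A) RNA of whole animals was sequenced, so a lower value can mean fewer cells of a type or less RNA per cell, which cannot be told apart here. The labels give no age of the mold, no dose and no time of first contact other than the growth period itself, and nothing in them says whether each replicate came from its own culture, so p-values reflect the spread among these samples only.

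The nematode meets molds and other microbes mostly through its gut, an epithelium a single cell layer thick that digests food, stores fat and makes yolk. Intestinal cells secrete lysozymes, C-type lectins, saposin-like and thaumatin-like proteins, several of which are known to change on contact with pathogens. The same cells detoxify foreign compounds, with cytochrome P450 enzymes that oxidise them, transferases that attach a sugar or glutathione, and ABC transporters that pump the products out. They also hold the lysosomal lipases and cathepsins, and the enzymes of fatty acid synthesis and breakdown.

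Replicates held 95998037 to 115940062 counted reads, and CPM here are counts scaled to library size. A floor of 3 counts came to 0.0259 to 0.0313 CPM, which covers counting error only. The deposited table lists 46904 gene IDs, and 16980 passed the filter on low counts and were tested. The distance of a library from the other replicates of its group, as the root mean square log2 difference, was 0.577 for WT with mold replicate 3 and 0.533 for replicate 1. It was 0.612 for WT without mold replicate 1, and 0.343 to 0.463 for the other 9 libraries. In the fit on all 12 replicates, 1064 genes passed (6.27% of those tested), 283 as higher with mold (1.67%) and 781 as lower (4.6%), by edgeR's quasi-likelihood test at a Benjamini-Hochberg adjusted p under 0.05. Single libraries set these numbers. Without WT with mold replicate 1, 2 or 3 the test called 448, 115 or 162 genes higher and 1564, 98 or 103 lower. Without WT without mold replicate 1, 2 or 3 it called 2263, 106 or 97 genes higher and 2547, 75 or 62 lower. For this reason a gene is said to have risen or fallen below only where it passed with the same sign in the full fit and in each of the 6 fits that left out 1 WT replicate, 7 fits in all.

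By this rule 78 genes rose with mold (0.459% of the 16980 tested) and 56 fell (0.33%), 134 in all (0.789%). These shares belong beside each count of risen or fallen members of a list below. The genes that rose had a median log2 fold change of 1.58 (0.43 to 8.85) and a median level of 25.6 CPM with mold, against 5.95 CPM without. Those that fell had a median log2 fold change of -1.57 (-8.18 to -0.46) and a median level of 3.28 CPM with mold, against 9.74 CPM without. The median over all tested genes was 0.0084 on the log2 scale. Of the genes that rose, 64 had a log2 fold change of at least 1 and 13 of at least 3, and of those that fell 41 and 7 changed by as much in the other direction. In all 134 the 3 mold replicates and the 3 replicates without mold did not overlap, as was so for 939 of the 1064 genes that passed the full fit. Of all tested genes 17.5% had no overlap, 8.07% in the higher and 9.48% in the lower direction. Small changes could also be called where replicates were close: atfs-1, with a log2 fold change of 0.43, was among them.

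The fit on all 12 replicates takes its estimate of spread from ns889 as well. In a fit on the 6 WT replicates alone, 78 of the 134 genes passed and 56 did not, with adjusted p values of 0.0529 to 0.189 for those 56 and no change of sign. Of the genes said below to have risen, those that did not pass in that fit are lys-1, clec-50, clec-65, dod-23, fbxa-182, pals-6, spp-3, K12H4.7, faah-2, acdh-9, cdr-2, nhr-142, atfs-1, emb-8, pgp-1, abt-4 and hsp-17. Of those said to have fallen, they are ZK6.6, acox-1.4, cept-1, obr-1, ant-1.4, mct-6, gcsh-1, mtl-2, cest-10 and che-3.

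**Figure D1:**
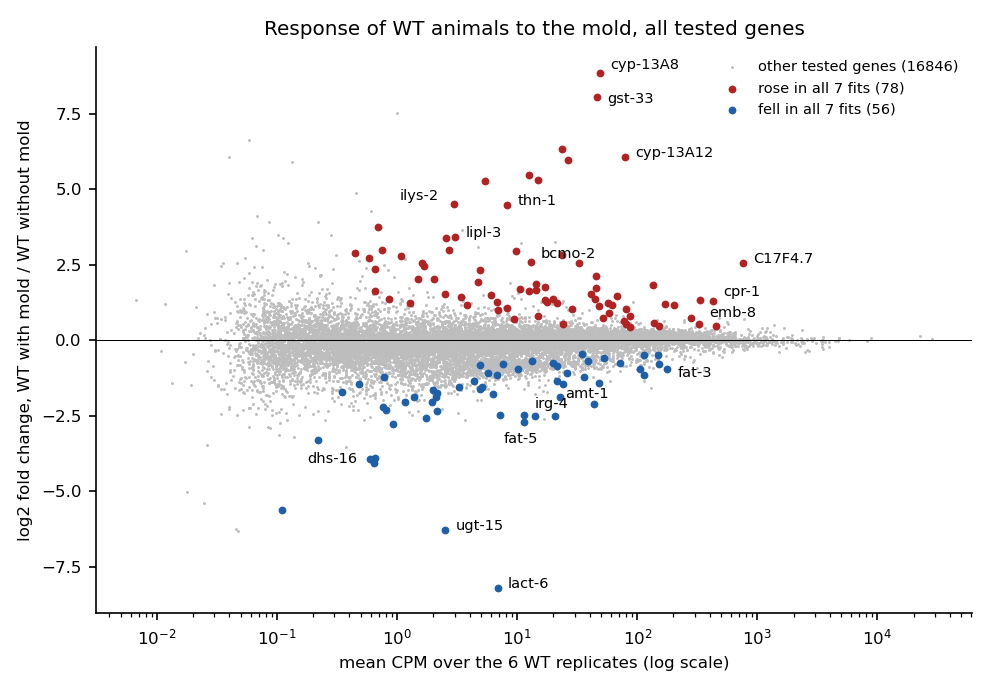
Each point is 1 of the 16980 tested genes. The x axis is the mean level over the 6 WT replicates in CPM (log scale) and the y axis is the log2 fold change, WT with mold over WT without mold. Red points are the 78 genes that rose in all 7 fits and blue points the 56 that fell, and the widest changes, cyp-13A8 at 8.85 and lact-6 at -8.18, belong to genes of intermediate abundance.

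How the 6 libraries lay in each set of calls follows in part from how the sets were chosen, since a gene that failed without any 1 WT library was not among the 134. For the 78 genes that rose, the median deviation from the mean of the 6 WT replicates was 0.684, 0.704 and 0.675 on the log2 scale in WT with mold replicates 1 to 3, and -0.915, -0.551 and -0.652 in WT without mold. For the 56 that fell it was -0.586, -0.496 and -0.604 with mold, against 0.446, 0.677 and 0.656 without. The 205 genes that passed as higher in the full fit and not in all 7 had 0.305, 0.265 and 0.235 with mold and -0.404, -0.227 and -0.255 without. The 725 genes that passed as lower in the full fit and not in all 7 had -0.2, -0.302 and -0.76 with mold and -0.0475, 0.629 and 0.676 without. In those 725 genes WT without mold replicate 1 lay nearer to mold replicates 1 and 2 than to the other replicates of its own group, and mold replicate 3 lay far below the rest.

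Antimicrobial effector genes were among the genes that rose most. ilys-2, an invertebrate-type lysozyme gene (WBGene00016669, chromosome IV, 2467681 to 2468810 in WBcel235), stood at 5.82, 6.04 and 5.12 CPM in the 3 replicates with mold, against 0.186, 0.295 and 0.267 CPM without. The 3 mold replicates lie close together and the groups are far apart, and its log2 fold change was 4.51 ± 0.34 (approximate SE, derived from the test statistic, adjusted p 1.6e-05). thn-1, which encodes a thaumatin-like protein (WBGene00009213, chromosome IV, 12380104 to 12380857), stood at 13.5, 15.6 and 18.5 CPM with mold and at 0.464, 0.769 and 0.892 CPM without. It rose by 4.49 ± 0.31 on the log2 scale (adjusted p 8.51e-06). thn-2, which lies close by, was at 36.5, 35.6 and 32.4 CPM with mold and at 12.8, 18.2 and 17.8 CPM without. These values do not overlap either, but thn-2 passed only the full fit and 3 of the 6 others (log2 fold change 1.10 ± 0.21, adjusted p 0.0193, up to 0.0658 with 1 replicate left out).

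Of 13 lysozyme genes tested, 3 rose and 0 fell, against 0.459% risen and 0.33% fallen of all tested genes. lys-1 and lys-2, which lie next to each other on chromosome V (10277827 to 10279127 and 10280310 to 10281474), both rose. lys-2 was at 97.8, 64.6 and 57.7 CPM with mold and at 12.3, 20.3 and 18.3 CPM without (log2 fold change 2.11 ± 0.26, adjusted p 0.00109). lys-1 was at 400, 348 and 302 CPM with mold and at 172, 232 and 227 CPM without. Its rise of 0.74 ± 0.13 on the log2 scale had an adjusted p of 0.0124 and was at most 0.044 whichever WT replicate was left out. The other 10 lysozyme genes did not pass in all 7 fits, and the median over the 13 was -0.155.

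C-type lectins, secreted sugar-binding proteins of which the genome holds a large family, moved in both directions: 3 of 133 tested members rose and 2 fell, and the family's median log2 fold change was -0.0266. Over all tested genes 0.459% rose and 0.33% fell. In the full fit 9 lectin genes passed as higher and 12 as lower (15.8%, against 6.27% of all tested genes). clec-50 had 265, 250 and 197 CPM with mold against 76.6, 127 and 105 CPM without (log2 fold change 1.20 ± 0.17, adjusted p 0.00234). clec-65 rose by 0.73 ± 0.13 and clec-17 by 2.99 ± 0.41 on the log2 scale, the second from a low level, at 0.914 to 1.81 CPM with mold and 0.0843 to 0.257 CPM without. clec-3 fell to 1.14, 0.719 and 1.11 CPM with mold, against 3.89, 2.89 and 3.21 CPM without (log2 fold change -1.75 ± 0.23). clec-206 was at 0.0616 to 0.113 CPM with mold, a few times the floor of detection, and at 0.498 to 1.67 CPM without.

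Some genes named for infection responses fell. irg-4 (WBGene00008584, chromosome IV, 12435802 to 12438274), an infection response gene, was at 3.29, 3.84 and 3.44 CPM with mold and at 12, 22.4 and 23.8 CPM without (log2 fold change -2.46 ± 0.27, adjusted p 0.000466). irg-5 (chromosome V, 13737007 to 13738474) was at 0.744, 0.801 and 0.719 CPM with mold, against 2.68, 3.11 and 3.61 CPM without (-2.05 ± 0.28, adjusted p 0.00182). In both genes the replicates with mold were almost level and each lay below every replicate without mold. dod-23, in the same list of 17 tested genes of infection response and of the dod group (genes downstream of the insulin-like receptor pathway), rose by 1.23 ± 0.20 (adjusted p 0.00678), and no other member of the list passed in the full fit. Of 42 antimicrobial and fungus-induced peptide genes, among them the nlp and cnc genes that epidermal fungal infection is known to induce, 0 passed in all 7 fits and 5 passed as higher in the full fit. The 5 were 11.9% of the list, against 1.67% of all tested genes called higher in the full fit. Of those 5, nlp-31 was at 42.3, 35.2 and 28.6 CPM with mold and at 15.9, 16.4 and 20.6 CPM without, and cnc-4 at 1.14, 1.31 and 0.893 CPM with mold and 0.481, 0.453 and 0.472 CPM without. The values do not overlap in these 2 genes, but leaving out 1 replicate took the adjusted p up to 0.0952 for nlp-31 and 0.0568 for cnc-4. Of 25 chitinase and chitinase-like genes none passed, and of 180 F-box genes 1, fbxa-182, rose (log2 fold change 1.17 ± 0.17). Both counts are near the 0.459% risen and 0.33% fallen of all tested genes. pals-6, of a family linked to intracellular pathogens, rose by 1.24 ± 0.21 at 1.47 to 2.16 CPM with mold and 0.566 to 0.875 CPM without, and the saposin-like gene spp-3 rose by 0.65 ± 0.09.

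Cathepsin genes rose, while an amylase gene fell. cpr-1, a cathepsin B-like protease gene (WBGene00000781, chromosome V, 11975515 to 11976756), had 608, 665 and 558 CPM with mold against 186, 272 and 278 CPM without. Every mold replicate was at least as far above the highest replicate without mold as those replicates spread among themselves, and the log2 fold change was 1.32 ± 0.21 (adjusted p 0.00663). cpr-3, of the same family, rose by 1.66 ± 0.18 (26.5, 17.3 and 21.9 CPM with mold, 6.23, 7.41 and 7.13 CPM without). Of 24 cathepsin genes tested these 2 rose and 0 fell, with a median of 0.201, against 0.459% risen and 0.33% fallen of all tested genes. K12H4.7, of a serine protease family, rose by 0.46 ± 0.07, whereas nep-22, a neprilysin-type peptidase gene, was at 119, 112 and 100 CPM with mold and at 163, 202 and 211 CPM without (-0.80 ± 0.10). C50B6.7, which encodes an alpha-amylase (chromosome V, 13322369 to 13324979), was at 9.05, 13.2 and 6.87 CPM with mold and at 25.8, 41.7 and 38.6 CPM without (-1.86 ± 0.24, adjusted p 0.00159).

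**Figure D2:**
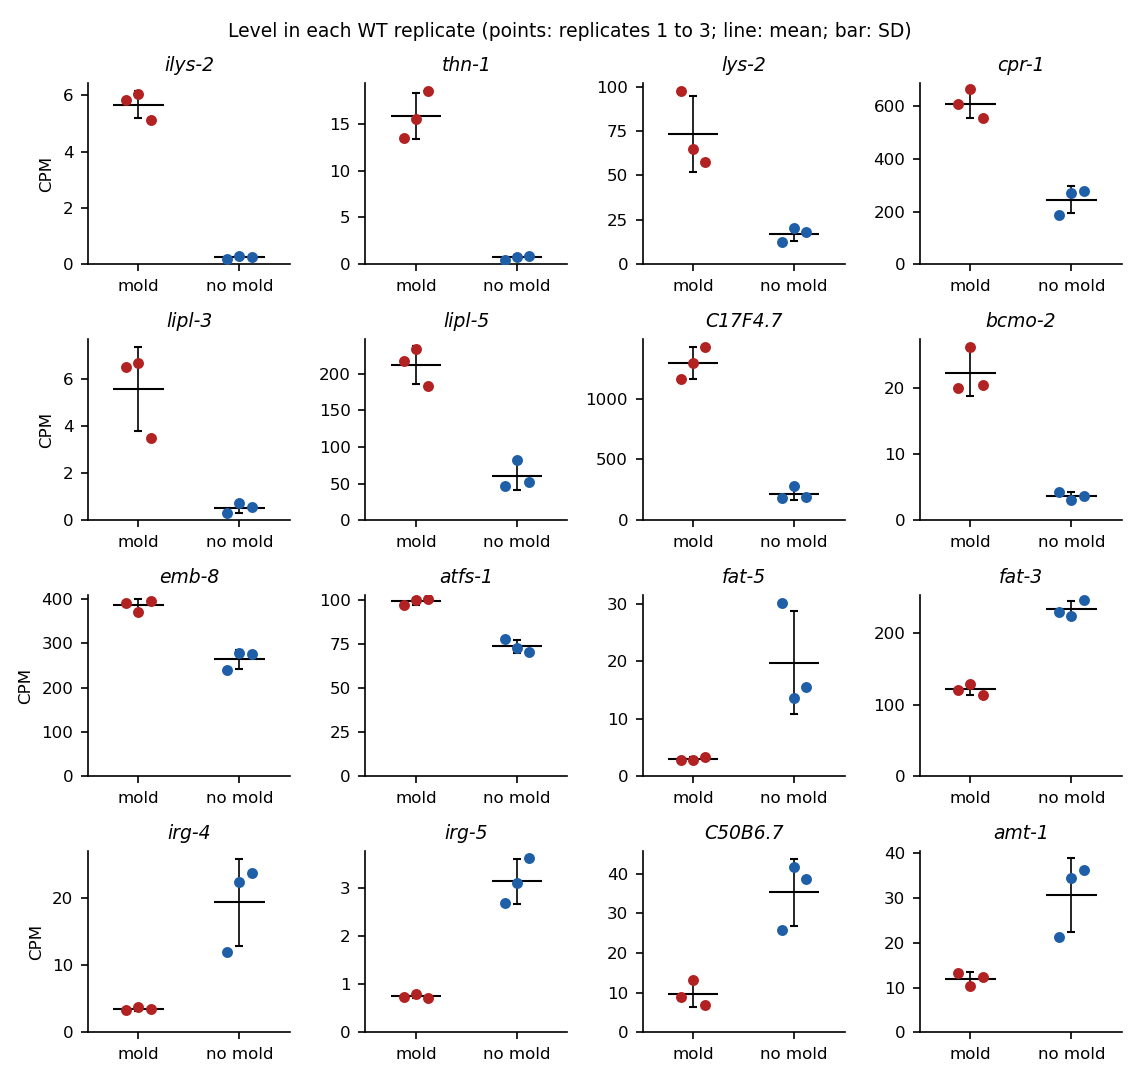
Points are the levels in CPM of 16 named genes in WT with mold (red, left) and WT without mold (blue, right), replicates 1 to 3 in each; the line is the mean and the bar the SD (n = 3). All y axes start at 0. In each panel the 3 mold replicates lie wholly above or wholly below the 3 replicates without mold, as for lys-2 (57.7 to 97.8 against 12.3 to 20.3 CPM) and fat-5 (2.79 to 3.43 against 13.7 to 30.1 CPM).

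Among lipid genes, 2 lipase genes rose and 2 desaturase genes fell. The risen lipase genes, lipl-3 and lipl-5, belong to the lysosomal lipase family. lipl-3 (WBGene00020016, chromosome V, 521702 to 524218) was at 6.47, 6.67 and 3.5 CPM with mold and at 0.312, 0.717 and 0.544 CPM without (log2 fold change 3.41 ± 0.35, adjusted p 0.00024). lipl-5 (WBGene00022642, chromosome V, 385713 to 388090) was at 217, 234 and 183 CPM with mold and at 46.3, 82.1 and 52 CPM without (1.81 ± 0.20, adjusted p 0.000385). These were the only members to rise among 33 tested lipase and lipid-binding genes, whose median was 0.0299, and 0 fell. Over all tested genes 0.459% rose and 0.33% fell. The gene beside lipl-5, ZK6.6 (388697 to 391598), fell, with 2.95, 2.32 and 2.02 CPM with mold and 4.99, 7.26 and 6.44 CPM without (-1.36 ± 0.20). gba-4, a glucosylceramidase gene, rose by 1.72 ± 0.23 and faah-2, a fatty acid amide hydrolase gene, by 1.12 ± 0.16.

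Of the desaturase genes, whose products place double bonds in fatty acids, fat-5 and fat-3 fell. fat-5, the palmitoyl-CoA desaturase gene (WBGene00001397, chromosome V, 17725004 to 17726818), was at 2.79, 2.92 and 3.43 CPM with mold and at 30.1, 13.7 and 15.5 CPM without. Even the lowest replicate without mold lay far above the highest with mold, and the log2 fold change was -2.70 ± 0.33 (adjusted p 0.00109). fat-3, the delta-6 desaturase gene on the path to long polyunsaturated fatty acids (WBGene00001395, chromosome IV, 9803023 to 9806119), averaged 121 ± 7.66 CPM with mold and 232 ± 11.7 CPM without (SD, n = 3 each; log2 fold change -0.94 ± 0.08, adjusted p 4.15e-05). The acyltransferase gene acl-12 fell by 0.76 on the log2 scale. Of 40 genes of fatty acid synthesis, elongation and desaturation these 3 fell and 0 rose, and the median over the 40 was -0.0769. The mean deviation of the 40 from the 6 WT replicates was -0.158, -0.0884 and -0.135 with mold and 0.122, 0.13 and 0.13 without, alike in the 3 replicates of each group. This mean includes the 3 genes that fell, so it does not show a shift of the whole list.

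The delta-9 desaturase gene fat-7 did not pass. It was at 26.2, 62.2 and 106 CPM with mold and at 379, 88.6 and 111 CPM without (log2 fold change -1.58 ± 0.57, adjusted p 0.117).

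Of 63 genes of fatty acid activation and beta-oxidation, 6 passed as higher and 7 as lower in the full fit (20.6% of them, against 6.27% of all tested genes), and 1 rose and 2 fell in all 7 fits. acdh-9, an acyl-CoA dehydrogenase gene, rose (0.58 ± 0.10), while hacd-1, a hydroxyacyl-CoA dehydrogenase gene, and acox-1.4, an acyl-CoA oxidase gene, fell (-0.74 ± 0.10 and -0.46 ± 0.07). acox-1.4 was at 28.3, 30.3 and 29.5 CPM with mold and at 39.8, 40.5 and 40.7 CPM without, one of the tightest separations of the data. cept-1, whose product makes phosphatidylcholine and phosphatidylethanolamine, was at 29.7, 32.9 and 27 CPM with mold and at 41.2, 52.5 and 51.1 CPM without (-0.69 ± 0.11). It was the only one of 22 genes of the methionine cycle and of phosphocholine synthesis to fall in all 7 fits; 5 passed as lower in the full fit and 0 as higher (22.7% of them), and the median was -0.217. ahcy-1, the S-adenosylhomocysteine hydrolase gene, missed the rule in 1 fit only, with 2153, 2174 and 2200 CPM with mold and 2747, 2805 and 2921 CPM without (-0.38 ± 0.07, adjusted p 0.0107). obr-1, an oxysterol-binding-related gene, fell by 0.50 on the log2 scale.

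Single genes of transport, mitochondrial metabolism and metal handling also changed. Of 74 aquaporin, peptide and solute transporter genes 2 passed as higher and 4 as lower in the full fit and 0 in all 7, and of 41 nuclear genes of the respiratory chain 1 passed as lower in the full fit and 0 in all 7. The full-fit calls were 8.11% of the transporter list and 2.44% of the respiratory list, against 6.27% of all tested genes. The genes of transport and mitochondria named next are in neither list. amt-1, an ammonium transporter gene (chromosome X, 4571448 to 4573914), was at 13.2, 10.3 and 12.4 CPM with mold and at 21.2, 34.6 and 36.4 CPM without (-1.36 ± 0.19, adjusted p 0.00234). ant-1.4, an ADP/ATP translocase gene, fell by 1.78 on the log2 scale (SE 0.30, adjusted p 0.00931) and mct-6, of the monocarboxylate transporter family, by 0.50. gcsh-1, for the H protein of the glycine cleavage system, was at 33.9, 45.2 and 46.5 CPM with mold and at 68.2, 60.6 and 61.7 CPM without (-0.60 ± 0.11). mtl-2, a metallothionein gene, was at 3.96, 3.78 and 3.22 CPM with mold and at 6.28, 8.72 and 8.02 CPM without (-1.07 ± 0.18). The cadmium-responsive genes cdr-2 and cdr-4, which lie in the same cluster on chromosome V, went the other way, by 1.35 ± 0.22 and 1.23 ± 0.13. Of 28 genes of metal and iron handling those 2 rose and mtl-2 fell.

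The gene with the most counts among those that changed, not divided by length, was C17F4.7 (WBGene00015913, chromosome II, 3245087 to 3246015), for which no function is given here. It had 1166, 1295 and 1428 CPM with mold and 185, 278 and 192 CPM without. This is a rise of 2.57 ± 0.18 on the log2 scale (adjusted p 8.51e-06). F40F8.5, also without a stated function, was at 239, 295 and 298 CPM with mold and at 136, 122 and 116 CPM without (1.15 ± 0.09). bcmo-2, a homologue of the mammalian enzymes that cleave beta-carotene (WBGene00018755, chromosome II, 3908491 to 3910837), was at 20, 26.2 and 20.3 CPM with mold and at 4.2, 3.12 and 3.67 CPM without (2.60 ± 0.17, adjusted p 4.69e-06). ptr-21, of the patched-related receptor family, was at 80.3, 74.7 and 72.8 CPM with mold and at 38.1, 43.6 and 39.4 CPM without (0.91 ± 0.07, adjusted p 2.69e-05), and was the only one of 72 hedgehog-related and patched-related genes to rise; 0 fell. Among the falls F42A10.7, without a stated function, was at 13.9, 23.9 and 11.7 CPM with mold and at 73.4, 66.6 and 71.7 CPM without (-2.10 ± 0.26).

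Single regulator genes changed. Of 204 nuclear hormone receptor genes, nhr-8 and nhr-142 rose and nhr-114 fell, and the family's median was 0.00779. Over all tested genes 0.459% rose and 0.33% fell. In the full fit 4 receptor genes passed as higher and 3 as lower (3.43%, against 6.27% of all tested genes). nhr-8, known for a role in resistance to toxic compounds (WBGene00003607, chromosome IV, 7710975 to 7714198), was at 27.1, 20.7 and 24.7 CPM with mold and at 7.42, 11.1 and 10.2 CPM without (1.33 ± 0.17, adjusted p 0.00109). nhr-142 was at 4.39, 5.55 and 4.79 CPM with mold and at 1.26, 2.14 and 2.08 CPM without (1.43 ± 0.25). nhr-114 (WBGene00003704, chromosome V, 4187185 to 4190008) was at 54.6, 88.9 and 68.9 CPM with mold and at 134, 170 and 166 CPM without (-1.15 ± 0.19, adjusted p 0.00756). atfs-1, the transcription factor that drives the mitochondrial unfolded protein response (WBGene00013878), rose by a small and even step, with 96.9, 100 and 101 CPM with mold and 77.8, 72.9 and 70.7 CPM without (0.43 ± 0.06, adjusted p 0.0024). The other 11 genes of the list for that response did not pass. The mitochondrial chaperone gene hsp-60 was at 686, 623 and 534 CPM with mold and at 558, 728 and 701 CPM without.

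Among enzymes of detoxification the widest rises were those of cyp-13A8, gst-33 and cyp-33C2. Of 69 cytochrome P450 genes 9 rose and 2 fell, of 64 UDP-glycosyltransferase genes 6 rose and 7 fell, and the 48 genes of glutathione S-transferases included 2 that rose and 1 that fell. Over all tested genes 0.459% rose and 0.33% fell. The full fit called 37.7%, 25% and 12.5% of these lists, in that order, against 6.27% of all tested genes. The enzyme that passes electrons to microsomal P450s, NADPH-cytochrome P450 reductase, is encoded by emb-8 (WBGene00001262, chromosome III, 5196678 to 5199688). It was at 392, 370 and 397 CPM with mold and at 240, 278 and 276 CPM without (0.55 ± 0.08, adjusted p 0.00247). Of 54 ABC transporter genes, pgp-1, for a P-glycoprotein, and abt-4 rose and 0 fell. In the full fit 4 of the 54 passed as higher and 6 as lower (18.5%), and their median log2 fold change was -0.0784. pgp-1 was at 23.8, 27 and 16.6 CPM with mold and at 3.86, 8.76 and 5.81 CPM without (1.87 ± 0.26), and abt-4 rose by 1.02 ± 0.18. cest-10, a carboxylesterase gene, fell by 0.84 on the log2 scale and dhs-16, a short-chain dehydrogenase gene, was at 0.0308 to 0.0924 CPM with mold, near the floor, and at 0.92 to 1.63 CPM without. Many of these genes have close paralogues, and how the deposited counts treat reads shared between them is not given in the sources used here.

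A rule of size picks out genes near absent in one condition, with under 1 CPM in all 3 replicates of a group and at least 5 CPM in all 3 of the other. It finds 8 genes at the higher level with mold, namely cyp-13A8, gst-33, gst-44, cyp-33C2, stdh-2, cyp-14A4, thn-1 and ilys-2, and 1 at the higher level without it, lact-6. lact-6, of the beta-lactamase domain family, was at 0.0635, 0.0308 and 0.0411 CPM with mold and at 17.4, 8.75 and 14.8 CPM without, so the mold values lie within a few counts of the floor. cyp-33C2 varied most among them, with 34.7, 93.2 and 12.3 CPM with mold and 0.439, 0.664 and 0.646 CPM without. For thn-1 and ilys-2 the values are those given above.

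Lists of housekeeping, stress, cuticle and neural genes are set beside 6.27% of all tested genes called in the full fit and 0.789% in all 7. None of 81 ribosomal protein genes (median log2 fold change -0.0419), 33 proteasome subunit genes (0.096) or 12 protein-coding genes of mitochondrial DNA (0.0233) passed in any direction in the full fit. The same held for 23 genes of the unfolded protein response of the endoplasmic reticulum (median -0.0869), whose chaperone gene hsp-4 was at 355, 333 and 353 CPM with mold and at 386, 387 and 369 CPM without. Among 27 superoxide dismutase, catalase, peroxiredoxin and thioredoxin genes 1 passed as lower in the full fit (3.7%, against 4.6% of all tested genes) and 0 in all 7. Of 15 heat shock genes hsp-17, a small heat shock protein gene, rose by 0.54 ± 0.09 (28.1, 26.9 and 30.2 CPM with mold, 20.1, 20.9 and 17.6 CPM without). In the full fit 1 heat shock gene passed as higher and 1 as lower (13.3%, above the share of all tested genes). Of 130 cuticle collagen genes 0 changed in all 7 fits, and 2 passed as lower in the full fit (1.54%). Their mean deviation was 0.382, -0.102 and -0.538 with mold and -0.353, 0.216 and 0.395 without, a spread within each group wider than the distance between the groups. Of 79 genes of cilia and guanylate cyclases, che-3, the heavy chain gene of the dynein that carries cargo back along cilia, fell, to 3.67, 3.49 and 3.49 CPM with mold against 6.92, 5.71 and 6.04 CPM without (-0.81 ± 0.14). In the full fit 1 gene of this list passed as higher and 1 as lower (2.53%). Of 195 chemoreceptor and 91 neuropeptide genes 0 passed in all 7 fits, and the full fit called 2.05% and 2.2% of them. With 0.789% of all tested genes called in all 7 fits, 0 in lists of this size, the collagens included, is near that share.

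**Figure D3:**
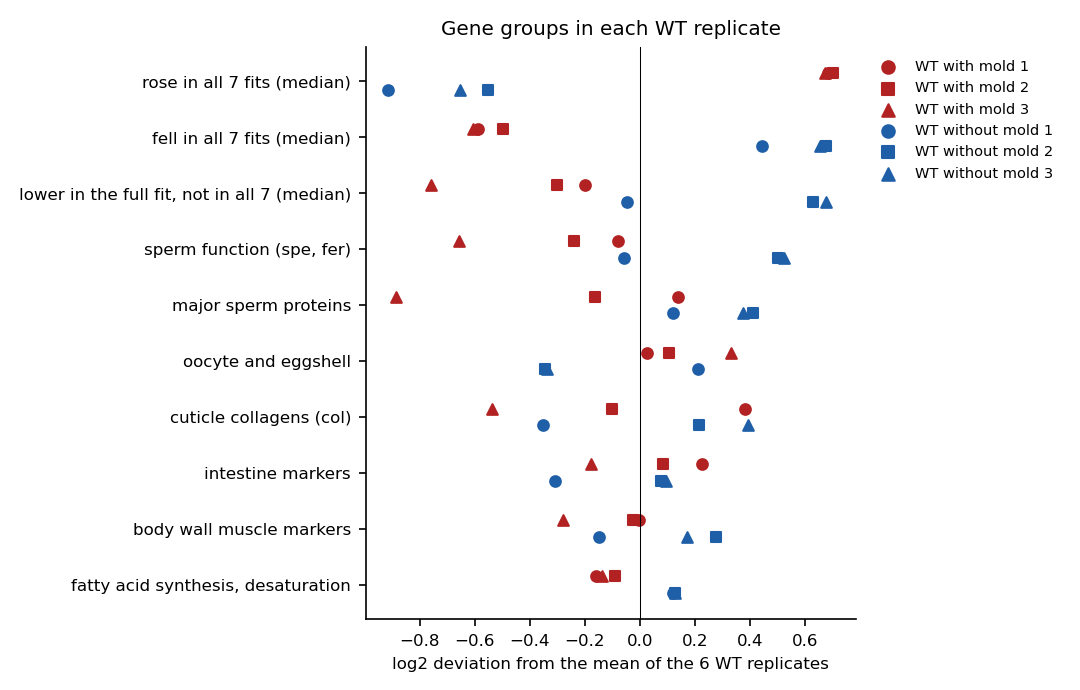
Each row is a gene group and each symbol 1 WT replicate, red with mold and blue without; circles, squares and triangles are replicates 1, 2 and 3. The x axis is the mean (median, where stated) log2 deviation of the group's genes from the mean of the 6 WT replicates. The colours separate in the genes that rose or fell in all 7 fits, which were chosen for it, and narrowly for fatty acid synthesis. The fatty acid mean includes 3 genes that fell in all 7 fits. Sperm, oocyte and collagen groups spread within each colour. Mold replicate 3 and no-mold replicate 1 lie apart from their groups for sperm and oocyte genes. For collagens no-mold replicate 1 lies apart, and the mold replicates are spread out (0.382, -0.102 and -0.538).

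Germ line genes were called in some fits and not in others. Of 36 sperm function genes of the spe and fer classes, 15 passed as lower in the full fit, above the 4.6% of all genes, and 0 passed in all 7, with a median log2 fold change of -0.824. Without WT with mold replicate 1 or WT without mold replicate 1 the test called 25 or 28 of them lower, and without replicate 2 of either group it called 0. Their mean deviation was -0.0775, -0.238 and -0.656 in the 3 mold replicates and -0.0568, 0.503 and 0.526 in those without. spe-11, for a sperm factor supplied to the egg, was at 56.5, 60.6 and 44.2 CPM with mold and at 65, 107 and 121 CPM without (log2 fold change -0.86 ± 0.19, adjusted p 0.0312 in the full fit and up to 0.132 with 1 replicate left out). The 29 major sperm protein genes had a median of -0.549, with 1 lower in the full fit, 21 without mold replicate 1 and 13 without no-mold replicate 1. Over all tested genes the fits without mold replicate 1 or no-mold replicate 1 called 1564 or 2547 lower. Without mold replicate 2 or no-mold replicate 2 they called 98 or 75 lower. Oocyte and eggshell genes went the opposite way in the same libraries. Of 25 tested, 0 passed in the full fit and 23 passed as higher without WT without mold replicate 1. That fit called 2263 genes higher over all tested. The mean deviation of the 25 was 0.0265, 0.108 and 0.333 with mold and 0.213, -0.345 and -0.336 without. Vitellogenin genes, which encode yolk, did not pass: vit-2 was at 20290, 24220 and 26550 CPM with mold and at 21220, 20720 and 21790 CPM without.

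Tissue markers were read alongside, as summed levels of each list. The 11 intestine markers came to 5720, 5400 and 4220 CPM with mold and 3480, 4610 and 4530 CPM without, with 1 higher (cpr-1) and 1 lower (mtl-2) in all 7 fits. The 10 body wall muscle markers ranged over 8720 to 11100 CPM with mold and 9940 to 12800 CPM without, the 10 pharynx markers over 248 to 492 CPM with mold and 413 to 535 CPM without, and the 15 neuronal markers over 457 to 492 CPM with mold and 453 to 536 CPM without. The 20 sperm markers ranged over 294 to 501 CPM with mold and 496 to 778 CPM without, and the 15 oocyte markers over 6200 to 7800 CPM with mold and 5060 to 7030 CPM without. The summed male markers were near absent, at 3.15 to 3.4 CPM with mold and 4.15 to 4.85 CPM without, and 0 of the 7 tested passed. No member of the muscle, pharynx, epidermis, neuron, amphid sheath glia, germ line, sperm, oocyte or male lists passed in all 7 fits. In the full fit 7 sperm markers passed as lower (35%, against 4.6% of all tested genes), as did 1 of 10 epidermis markers. Without mold replicate 1 or no-mold replicate 1, 18 or 17 sperm markers passed as lower, among 1564 or 2547 such calls over all tested genes. The part of these marker levels in the calls made only in the full fit was not tested.

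By position, chromosome V held 20.7% of tested genes and 43.3% of the 134 that changed, with 32 that rose (0.911% of its 3514 tested genes) and 26 that fell (0.74%). Chromosome I had the smallest share of the nuclear chromosomes in total (0.3%), with 5 that rose (0.188%) and 3 that fell (0.113%). On chromosome X 4 rose (0.166%) and 8 fell (0.331%). Chromosome X held few of the calls made in the full fit, with 1.28% of its tested genes higher and 1.49% lower, whereas chromosome IV had 1.59% higher and 6.29% lower. In 12 places 3 or more neighbouring tested genes passed the full fit in the same direction, and 3 of these runs held genes that changed in all 7 fits. The longest was the cyp-13A cluster on chromosome II (9788801 to 9807532), where 7 neighbours were higher by 1.49 to 8.85 on the log2 scale and 5 of them rose in all 7 fits. A second, on chromosome IV (6818606 to 6829490), held C17H12.8, C17H12.6, H20E11.3 and H20E11.2, with log2 fold changes of 1.02 to 1.54, of which C17H12.8 rose in all 7 (72.1, 56.5 and 56.1 CPM with mold, 19, 22.1 and 22.3 CPM without). The third, on chromosome V (4903930 to 4911399), held ugt-8, ugt-14 and ugt-13, with log2 fold changes of -2.53 to -1.2. Clusters of paralogues can share reads, so neighbours in such a run are not independent. By gene class, 129 of the 134 are annotated as protein-coding, 4 as pseudogenes and 1, linc-108, as a long non-coding RNA. linc-108 was at 0.926, 1.2 and 0.883 CPM with mold and at 0.203, 0.127 and 0.123 CPM without (log2 fold change 2.71 ± 0.41).

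**Figure D4:**
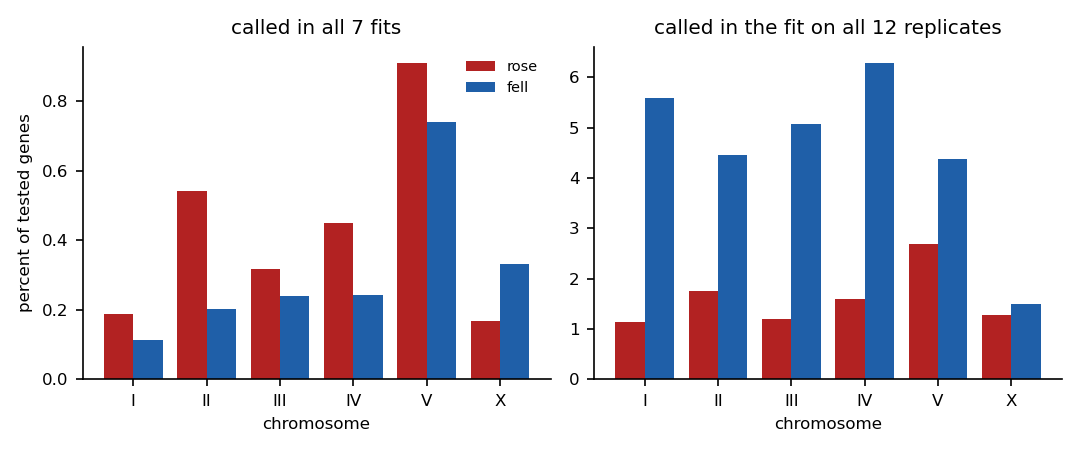
Bars give the percent of the tested genes of each chromosome that were higher (red) or lower (blue) with mold, on the left for calls in all 7 fits and on the right for calls in the fit on all 12 replicates; both y axes start at 0. Chromosome V leads on the left with 0.911% and 0.74%, and on the right the blue bar of the X chromosome (1.49%) is the shortest of that colour.

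The ns889 libraries are not in the WT group means but enter the shared estimate of spread, so the calls in the genotypes are not independent. The ns889 animals met the same mold, and there 316 genes passed as higher with it (1.86%) and 218 as lower (1.28%). Of the 78 genes that rose in WT, 48 passed as higher in ns889, and 72 had a positive fold change there. Of the 56 that fell in WT, 43 passed as lower in ns889 and 54 had a negative fold change. Across genes, which are not independent replicates, Pearson's r between the log2 fold changes of the genotypes was 0.547 over all 16980 tested genes and 0.815 over the 134. The 134 were chosen for their change in WT, which can raise r, so these values are not to be compared. The log2 fold change of C17F4.7 was 2.57 ± 0.18 in WT and 1.93 ± 0.18 in ns889, that of lys-2 was 2.11 ± 0.26 in WT and 2.42 ± 0.27 in ns889, and that of nhr-8 was 1.33 ± 0.17 in WT and 1.26 ± 0.16 in ns889. fat-3 had -0.94 ± 0.08 in WT and -0.93 ± 0.08 in ns889, and nep-22 -0.80 ± 0.10 in WT and -0.65 ± 0.10 in ns889.

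The difference of the mold responses, tested as WT minus ns889 in the same fit, passed for 16 genes as higher (0.0942%) and 6 as lower (0.0353%), and 754 had an unadjusted p under 0.05. Of the 134 WT genes 13 were among them, 11 with a positive and 2 with a negative difference. ilys-2 was at 0.0364, 0.0831 and 0.0278 CPM in ns889 with mold and at 0.0444, 0.131 and 0.151 CPM in ns889 without, all close to the floor, and its response differed by 5.62 ± 0.59 on the log2 scale (adjusted p 0.002). thn-1 was at 0.218, 0.0831 and 0.0835 CPM in ns889 with mold and at 0.213, 0.151 and 0.231 CPM without (difference 5.11 ± 0.50, adjusted p 0.00167). Of the 4 groups, WT with mold alone held these effector genes at a high level. thn-2 was at 3.65, 3.2 and 4.55 CPM in ns889 with mold and at 10.2, 16 and 19.4 CPM without, opposite to WT (difference 3.10 ± 0.31, adjusted p 0.00167). cpr-1 was at 126, 197 and 167 CPM in ns889 with mold and at 207, 322 and 347 CPM without, lower than in WT with mold in every replicate (difference 2.15 ± 0.30, adjusted p 0.00922). irg-5 and clec-3, which fell in WT, had differences of -2.96 ± 0.38 and -2.65 ± 0.32, with clec-3 at 11.7, 8.55 and 8.43 CPM in ns889 with mold and 6.2, 5.19 and 3.97 CPM without. For emb-8 the log2 fold change was 0.55 ± 0.08 in WT and 0.07 ± 0.08 in ns889, but the difference, 0.48 ± 0.11, did not pass (adjusted p 0.267), nor did that of pgp-1 (1.42 ± 0.35, adjusted p 0.444).

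**Figure D5:**
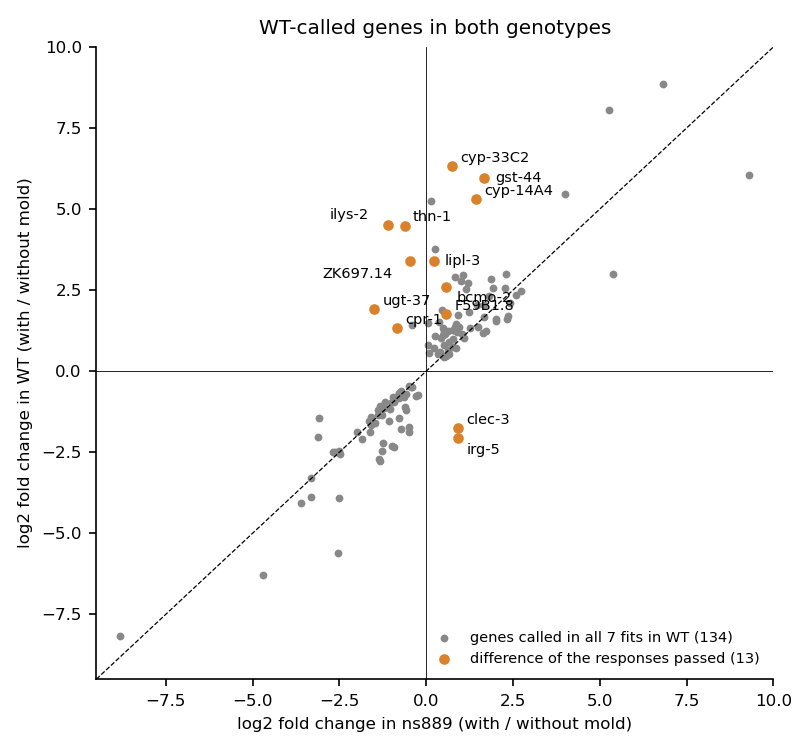
Each point is 1 of the 134 genes that changed in WT in all 7 fits. The x axis is its log2 fold change with mold in ns889 and the y axis that in WT, and the dashed line marks equal responses. Orange points are the 13 genes whose difference of responses passed, among them ilys-2 (4.51 in WT, -1.11 in ns889) and irg-5 (-2.05 in WT, 0.91 in ns889); most other points lie in the quadrants where both genotypes moved the same way.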

How the data were processed

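The authors deposited raw counts per gene. The submitters' processing notes list the build WBcel235, FastQC (0.11.12), STAR (2.4a), featureCounts, edgeR (3.28.1) and limma (3.42.2). Per the labels' protocols the library kit keeps strand. Which strand setting and annotation release were used for counting is not given in the sources used here. Antisense pairs and close paralogues are uncertain for this reason. Replicate 1 of each group has 1 sequencing run. Replicates 2 and 3 have 2 each, which were summed (chi-square per degree of freedom 1.08 to 1.12 between runs, and 12.1 to 193 between WT replicates of a group). Of the IDs 44017 had a symbol, and 46817 were found in annotation release 115.

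After filterByExpr and TMM scaling, edgeR's quasi-likelihood test (edgeR 4.0.16, R 4.3.3) was run with 4 group means over all 12 replicates and Benjamini-Hochberg adjustment over all 16980 genes. Levels are CPM on TMM-scaled library sizes, and errors are SD for levels and an approximate SE for log2 fold changes. That SE is the absolute log2 fold change divided by the square root of the test's F statistic. It is not estimated directly and can be unreliable for genes with few counts. A level is not divided by gene length, so levels are compared only within a gene. Genes are named from the 15 highest and 15 lowest changes that held in all 7 fits (mean of at least 5 CPM in a WT group), the 10 most abundant of them, up to 4 members of each of 66 lists, and neighbours in runs. Outside this rule and chosen after their values were seen are fat-7, spe-11, hsp-60, hsp-4, clec-65, gba-4, faah-2, mct-6, obr-1, cest-10, linc-108, ugt-37, ZK697.14, tsp-2, clc-19, math-38, fut-5, F55G11.8, Y54G2A.45, Y32F6A.5 and K09D9.1. The lists and tests were chosen with earlier results of these data known. List levels use a pseudocount of 0.5 CPM.

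The test was tried on simulated counts over 16980 genes for WT with mold against WT without mold. Of 50 genes changed per size, 26% were found at 1.5-fold, 64% at 2-fold, 92% at 4-fold and 98% at 8-fold, with 14 false calls. The simulation gave every library the same spread for a gene and scored 1 fit. These rates therefore do not describe calls from the uneven WT libraries or the rule of 7 fits. Figures were drawn with matplotlib 3.10.9. The alternatives tried were DESeq2 (1.42.0), RLE size factors in edgeR, limma-voom (limma 3.58.1) with and without sample quality weights, other filters, the first run only, a replicate block, the WT replicates alone, a minimum size of change and replicates left out.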

Additional observations from a re-analysis of the deposited data

Results flagged for a closer look

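For 13 of the 134 genes that changed in WT, the mold response differed between WT and ns889 by the test of the difference itself. With a positive log2 difference (WT minus ns889) these were ilys-2 (5.615), cyp-33C2 (5.596), thn-1 (5.113), gst-44 (4.272), cyp-14A4 (3.877), ZK697.14 (3.864), ugt-37 (3.415), lipl-3 (3.177), cpr-1 (2.152), bcmo-2 (2.02) and F59B1.8 (1.171). With a negative one they were irg-5 (-2.962) and clec-3 (-2.654). For 11 of the 13 the difference also passed in each of the 6 fits that left out 1 WT replicate. With the replicate block it passed for only 7 genes as higher and 2 as lower over all tested genes, so not all 13 passed there. For lipl-3 and cyp-33C2 the difference passed in 3 of the 6 fits that left out 1 WT replicate, with adjusted p values of up to 0.117 and 0.173.

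The responses went in opposite directions for ugt-37, which rose by 1.91 ± 0.29 in WT and had -1.50 ± 0.30 in ns889 (adjusted p 0.0174; its WT rise did not pass with only the 6 WT replicates, adjusted p 0.0926), and for clec-3, with -1.75 ± 0.23 in WT and 0.90 ± 0.22 in ns889 (adjusted p 0.0455). F59B1.8, gst-44 and cyp-14A4 passed as higher in both genotypes, with a larger log2 fold change in WT (1.75 ± 0.11, 5.95 ± 0.38 and 5.31 ± 0.27) than in ns889 (0.58 ± 0.11, 1.68 ± 0.36 and 1.44 ± 0.31). Levels of lipl-3 and cyp-33C2 in WT with mold varied among replicates, at 3.5 to 6.67 and 12.3 to 93.2 CPM, while in ns889 with mold they were at 0.222 to 0.291 and 0.425 to 0.687 CPM. Groups hold 3 replicates, too few to ask whether 1 sample stands apart within a gene.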

How the results depend on the processing

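The 283 higher and 781 lower calls became 524 and 1763 with DESeq2, 172 and 174 with limma-voom, 3141 and 3298 with sample quality weights, 92 and 114 under a filter of 5 CPM, 47 and 36 with the 6 WT replicates alone, 149 and 403 with an absolute log2 fold change of at least 1, and 1642 and 2218 without both libraries that stood apart (WT with mold replicate 3 and WT without mold replicate 1). Leaving out 1 WT replicate gave 97 to 2263 higher and 62 to 2547 lower. RLE size factors gave 319 and 1154, no filter 259 and 1068 and the first run only 267 and 889. At an adjusted p under 0.01 in each of the 7 fits, 36 genes rose and 21 fell. For the difference of the responses (16 higher, 6 lower) the counts were 32 and 45 with DESeq2, 11 and 5 with limma-voom and 125 and 609 with quality weights (these 3 chosen after seeing the data), and 12 to 21 higher and 4 to 24 lower with 1 replicate left out. The cause was not tested.

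Same-numbered WT replicates did not deviate together (correlations -0.323, 0.219 and -0.268 over genes). The highest correlation, 0.433, was between WT with mold replicate 3 and WT without mold replicate 1, the libraries that stood apart. Deviations from means of 3 replicates cannot tell whether same-numbered samples were handled together, so a pairing by number remains possible. With the replicate block 59 genes were higher and 45 lower, and for the difference 7 and 2.

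Of the 134 genes called in all 7 fits, DESeq2, RLE, quality weights, no filter and leaving out both libraries kept 134, limma-voom 133 (not C18B10.6), the first run 133 of 133 and the 5 CPM filter 88 of 88 with a value. The replicate block kept 92, the WT replicates alone 78 and the minimum change 105. No sign reversed in these settings. Depth limits genes near 0.0313 CPM.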

Other observations

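Several genes that changed in all 7 fits belong to no group described above. tsp-2, a tetraspanin gene, was at 0.436, 0.575 and 1.32 CPM with mold and at 0.0929, 0.137 and 0.0821 CPM without (log2 fold change 2.89 ± 0.45), and clc-19, a claudin-like gene, was at 2.53, 1.72 and 4.02 CPM with mold and at 0.38, 0.748 and 0.267 CPM without (2.57 ± 0.41). Both rose with the highest value in mold replicate 3. math-38, of the MATH domain family, fell to 0.218, 0.349 and 0.144 CPM with mold against 1.35, 1.72 and 1.76 CPM without (-2.76 ± 0.26). fut-5, a fucosyltransferase gene, fell by 1.20 on the log2 scale (SE 0.20), at 0.442 to 0.508 CPM with mold and 0.81 to 1.25 CPM without. F55G11.8 and Y54G2A.45, without a stated function here, rose by 1.70 ± 0.21 and 1.62 ± 0.19. Y32F6A.5 rose by 0.47 ± 0.06, with 177, 174 and 173 CPM with mold and 120, 126 and 134 CPM without.

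With only the 6 WT replicates in the fit, tsp-2, clc-19, fut-5, F55G11.8 and Y32F6A.5 did not pass, nor did the 2 genes that follow.

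Some large fold changes came with uneven replicates. K09D9.1 rose in all 7 fits by 3.00 ± 0.45, at 2.8, 2.68 and 8.98 CPM with mold and 0.616, 0.78 and 0.41 CPM without, and C18B10.6 by 5.26 ± 0.75, at 10.2, 20 and 1.34 CPM with mold and 0.287, 0.242 and 0.287 CPM without. For C18B10.6 the mold replicates spread widely, and its call was the one that limma-voom did not make.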
